A study of Rattus norvegicus with 89 samples.

Results

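The genes described here encode the subunits of the mitochondrial respiratory chain and of the ATP synthase, measured in rat kidney. They were chosen by symbol alone: every probe set with 1 gene symbol beginning with Nduf (followed by a, b, c, s or v and a digit), the 4 Sdh genes, Uqcr genes, Cyc1, Cox4 to Cox8 genes and Atp5 genes. This gave 80 of the 14217 genes named on the array, from 89 of its 31099 probe sets: 35 of complex I, 4 of complex II, 8 of complex III, 17 of complex IV and 16 of complex V. The rule also takes in a few genes that are no fixed subunits: Cox6c-ps1 is a pseudogene symbol, Cox7a2l encodes an assembly factor of supercomplexes and Atp5if1 the inhibitor of the ATP synthase. A further 7 matching probe sets carry several gene symbols and were left out.

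Kidney RNA came from 89 Sprague-Dawley Crl:CD(SD) rats of 7 to 8 weeks at the start, 44 males and 45 females, with 1 array per rat; the apical parts of both kidneys of an animal were homogenized together. The compounds, given each day over 1 or 5 days, were the aminoglycosides gentamicin (spelled Gentamycin by the submitters) and tobramycin, the metal compounds cisplatin and cadmium, valproic acid and doxorubicin. Saline over 1 or 5 days served as control, and naive rats received nothing. Each of these 15 groups held 6 rats, apart from 5 in doxorubicin at day 5, 7 in saline at day 1 and 5 in saline at day 5. All groups are wild-type rats of 1 strain, and doses are not in the labels. The design text's total of 7 compounds, 5 nephrotoxicants and 2 controls, is reached with saline among them.

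As background, the respiratory chain passes electrons from NADH (complex I) and succinate (complex II) through ubiquinone, complex III and cytochrome c to oxygen at complex IV, and complexes I, III and IV pump protons whose return flow drives the ATP synthase, complex V. Kidney tubules, above all the proximal tubule, are packed with mitochondria because their transport of salt and solutes costs ATP. Most subunits are encoded in the nucleus and are made in matched amounts in many tissues, while a few, such as Cox6a2, Cox7a1 and Cox8b, are isoforms of muscle or brown fat.

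Values are microarray signals, each array scaled to a common trimmed mean of 180.9, and changes are differences of log2(signal + 16) from a limma fit over all 89 arrays with group and sex as terms. Arrays differed in brightness as deposited, with trimmed means between 91.5 and 352. A gene was tested if at least 5 arrays exceeded a signal of 33.2; 11415 genes passed, among them 78 of the 80 subunit genes. Cox6a2 and Cox7b2, isoforms of muscle and of testis, stayed below the limit, with signals of at most 16.7 and 19.9 in any rat. "Called" means a Benjamini-Hochberg adjusted p under 0.05 over all 11415 genes. Since the tissue was homogenized whole, fewer cells of a type and less RNA per cell cannot be told apart.

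The subunit genes were among the bright genes of the array, and 68 of the 78 tested had a mean signal above 1000. Between rats of the same group and sex they varied little, with a median residual SD of 0.14 on the log2 scale, against 0.20 over all genes tested. Among the 563 genes whose mean levels lay between the quartiles of the subunits, the median residual SD was 0.16. A residual SD above the all-gene median was found for 15 of the 78. The widest were Cox8b, a dim isoform, at 1.01, Ndufb8 at 0.38 and Cox5a, a subunit of cytochrome oxidase, at 0.30.

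No subunit gene was called in any of the 12 comparisons of a compound with saline of the same day. The share of all genes called in these comparisons was itself small: at day 1 it was 0.123% for gentamicin, 0.517% for tobramycin, 0% for cisplatin, 0.0526% for cadmium, 0.0526% for doxorubicin and 0.228% for valproic acid. At day 5 it was 0.0175% for gentamicin, 0% for tobramycin, 0.412% for cisplatin, 0.0613% for cadmium, 0.377% for doxorubicin and 0.149% for valproic acid. The other fits, listed with the processing, called 1 subunit gene at most in any of them.

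At day 1 the subunits lay close to saline. The median log2 change over the 78 genes was -0.061 with gentamicin, 0.0017 with tobramycin, 0.070 with cisplatin, -0.012 with cadmium, -0.014 with doxorubicin and 0.023 with valproic acid, beside all-gene medians between -0.0090 and 0.017. At an unadjusted p under 0.05 there were 1, 1, 1, 0, 5 and 2 subunit genes in the same order of compounds, against 3.22%, 7.07%, 4.51%, 4.42%, 7.84% and 9.43% of all genes. Between 75 and 77 of the 78 genes had a 95% interval that stayed within a 1.5-fold change either way. With cisplatin 67 of 78 changes were positive, and with gentamicin 68 of 78 were negative. After quantile normalization these counts were 52 and 53, with medians of 0.026 and -0.022, and without cisplatin rat 3M19 the cisplatin median was 0.033. The largest change with cisplatin was that of Atp5me, subunit e of the ATP synthase, with signals of 1268 to 2244 (median 1616) in cisplatin rats and 1086 to 1717 (median 1282) in saline rats. Its log2 change was 0.32 ± 0.15 (SE; adjusted p 0.989), and the groups overlapped. The largest change with doxorubicin was that of Cox7a1, the muscle isoform of a cytochrome oxidase subunit, which had signals of 37.3 to 67.5 (median 44.7) in doxorubicin rats and 27.1 to 44.98 (median 32.2) in saline rats. Its log2 change was 0.33 ± 0.14 (adjusted p 0.541), again with overlap.

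**Figure D1:**
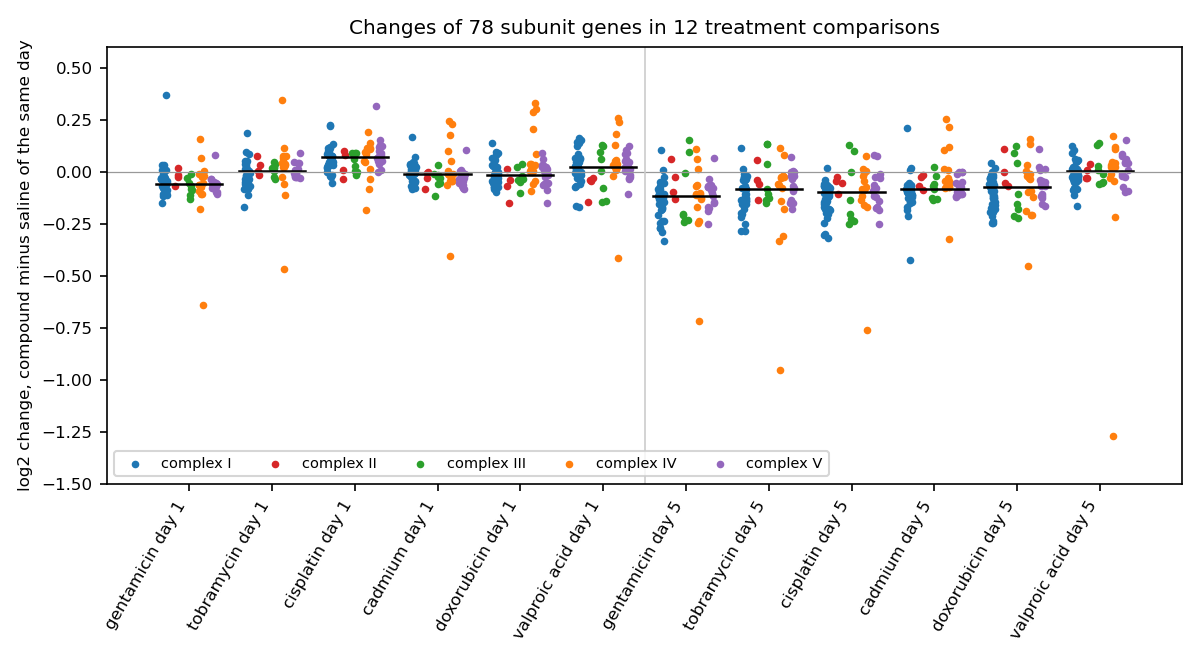
Log2 change (compound minus saline of the same day; limma fit on 89 arrays) of each of 78 subunit genes, coloured by complex, in 12 comparisons; the black line is the median of the 78. The day 5 medians lie below 0 for gentamicin, tobramycin, cisplatin, cadmium and doxorubicin, the valproic acid median lies at 0.0027, and no point is called; the lowest point of each day is Cox8b.

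At day 5 the subunits leaned lower in 5 of the 6 compounds. The median log2 change was -0.11 with gentamicin, -0.081 with tobramycin, -0.099 with cisplatin, -0.084 with cadmium and -0.073 with doxorubicin, but 0.0027 with valproic acid, beside all-gene medians between -0.0027 and 0.0089. Negative changes made up 69, 68, 70, 66 and 64 of the 78 in the same order, and 38 with valproic acid. The subunit genes moved together within a rat, so such counts are not counts of separate observations. In single rats as few as 2 (4F133) and as many as 72 (3M19) of the 78 lay above their own mean over all rats. At an unadjusted p under 0.05, 20 subunit genes were lower with gentamicin, where 4.5% of all genes were, 9 with tobramycin (3.6%) and 10 with cisplatin (5.19%). The counts were 3 with cadmium (2.65%), 2 with doxorubicin (5.28%) and 1 with valproic acid (4.13%). None was higher at that p in any of the 6, where 5.62%, 4.34%, 6.92%, 3.43%, 4.64% and 3.34% of all genes were, in the same order of compounds. These 6 comparisons share the same 5 saline rats, so their leanings are not independent of each other. Complex I showed it with gentamicin, tobramycin and cisplatin by medians of -0.12 each over 35 genes. Complex II, with medians of -0.060, -0.050 and -0.050 over its 4 genes, moved least in those 3 comparisons. The tubular injury marker Havcr1 was called higher in cisplatin rats at day 5 (log2 change 2.89, adjusted p 0.00725), which no subunit gene was.

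The saline group of day 5 held a rat that stood apart. Female 1F106 had the highest ratio of 3′ to 5′ signal of the GAPDH control probe sets, a measure of RNA integrity, at 1.57 on the log2 scale. There were 4 rats with a ratio above 1, all female, and the other 85 ratios ran from 0.15 to 0.81. As deposited, the arrays of these 4 lay below the common trimmed mean of 180.9, as did many of the other arrays. Their trimmed means were 91.5 (5F140, the lowest of all arrays), 116.5 (1F106), 120.4 (7F155) and 153.9 (7F160). The parts of the ratio and of brightness in the values of these 4 rats were not tested. For each rat the mean deviation of its 78 subunit genes from their means over all rats was taken as a score. The 4 rats of high ratio scored 0.11 to 0.24 (median 0.21), against -0.19 to 0.26 (median -0.013) in the other 85. They were not shared by all complexes. In the 4 rats the complex IV genes scored 0.16 to 0.43, against -0.19 to 0.20 in the other 41 females. Their complex II genes scored -0.32 to -0.090, against -0.21 to 0.094 in those females.

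**Figure D2:**
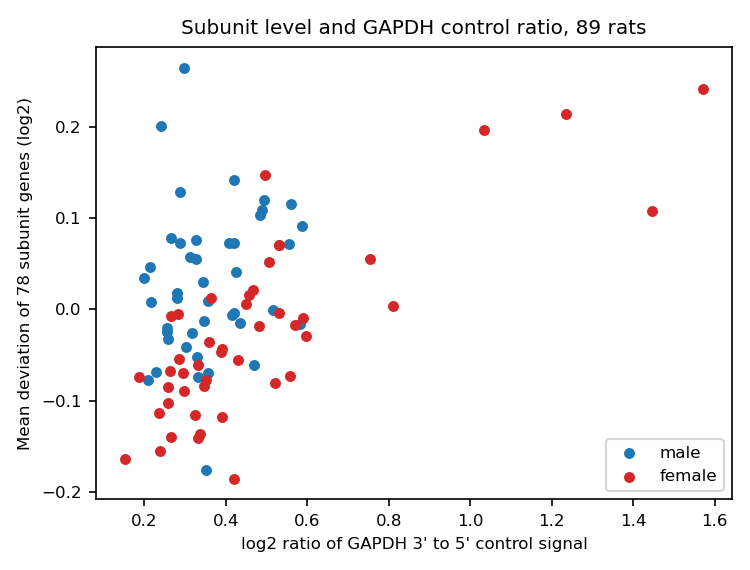
Score of each rat (mean log2 deviation of 78 subunit genes from their means over 89 rats) against the log2 ratio of GAPDH 3′ to 5′ control signal, males in blue and females in red. The 4 females with ratios from 1.03 to 1.57 have scores from 0.11 to 0.24, and 1F106 is the point farthest right.

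Without 1F106 the day 5 medians shrank to -0.075 with gentamicin, -0.027 with tobramycin, -0.055 with cisplatin, -0.017 with cadmium and -0.027 with doxorubicin, and valproic acid came to 0.054. The subunit genes at an unadjusted p under 0.05 then numbered 4, 3, 0, 5, 0 and 2, against 4.61%, 4.61%, 6.94%, 7.67%, 7.06% and 6.55% of all genes. With the GAPDH ratio as a further term in the fit of all rats, the medians were -0.044, -0.035, -0.041, -0.055, -0.024 and 0.039. With array quality weights they were -0.061, -0.046, -0.030, -0.056, -0.033 and 0.034. After quantile normalization they were -0.070, -0.061, -0.061, -0.048, -0.040 and 0.0089. Other fits kept the lean near its size in the main fit. With array brightness as a further term the medians were -0.11, -0.096, -0.098, -0.096, -0.070 and 0.0085. On the arrays of the groups compared alone they were -0.11, -0.078, -0.10, -0.084, -0.097 and -0.015. The part of RNA integrity in the lean was not tested beyond these values. Group means of the score at day 5 were -0.058 ± 0.079 with gentamicin, -0.030 ± 0.10 with tobramycin, -0.048 ± 0.080 with cisplatin, -0.0067 ± 0.10 with cadmium, -0.022 ± 0.050 with doxorubicin and 0.052 ± 0.11 with valproic acid, against 0.071 ± 0.13 with saline (SD; n = 6 each, 5 for doxorubicin and saline). Every one of these groups overlapped the saline rats, whose scores ran from -0.081 to 0.24.

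**Figure D3:**
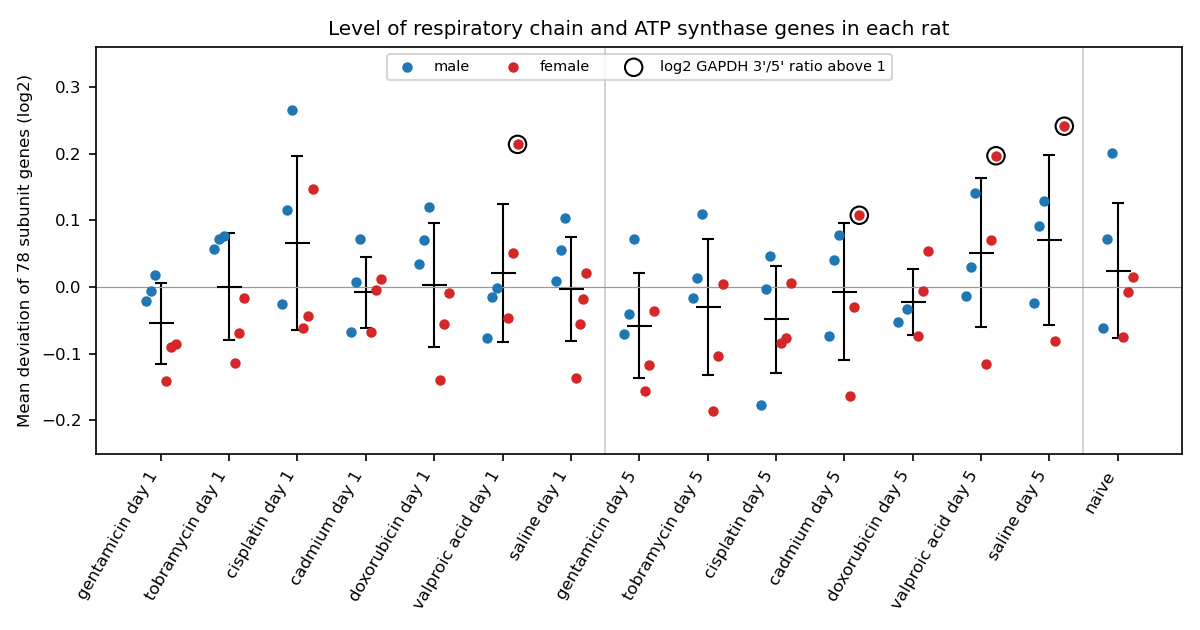
Score of each of 89 rats (mean log2 deviation of 78 subunit genes) by group, each compound left of saline of the same day and naive rats last; blue points are males, red points females, black bars the group mean ± SD, and rings mark a log2 GAPDH 3′ to 5′ ratio above 1. All groups overlap, females lie mostly below males of their group, and the ringed female of saline at day 5 has the second highest score of all rats.

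The clearest single reading was Ndufv1 with gentamicin at day 5. Ndufv1 encodes the flavin-binding subunit at which complex I takes electrons from NADH. Its signal was 1665 to 1789 (median 1695) in the 6 gentamicin rats, against 1794, 1904, 1970.2, 1973 and 2554 in the saline rats. Every gentamicin rat lay below every saline rat, by a narrow margin. Such a separation occurred for 1 of 78 subunit genes here and for 0.298% of all genes, and for 0 subunit genes in the other 11 comparisons. There the share of all genes was 0.0788%, 0.263%, 0.0526%, 0.149%, 0.219% and 0.272% at day 1, in the order of compounds used above. At day 5 it was 0.254% with tobramycin, 0.403% with cisplatin, 0.193% with cadmium, 0.832% with doxorubicin and 0.368% with valproic acid. The log2 change was -0.24 ± 0.061 (unadjusted p 0.000207 in the limma fit, adjusted p 0.158), and without 1F106, the rat at 2554, it was -0.14 ± 0.058 (adjusted p 0.998). With tobramycin, the other aminoglycoside, Ndufv1 ran from 1681 to 1913 (median 1727), overlapping saline, with a log2 change of -0.20 ± 0.061 (adjusted p 0.436).

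Ndufs1, the iron-sulfur subunit that leads electrons away from the flavin, gave the only call of a treatment comparison in another fit. Its signal was 1190 to 1999.8 (median 1506) in tobramycin rats at day 5, against 1323, 1594, 2078, 2098 and 2372 in saline rats. The groups overlapped, and the lowest saline value was that of 1F106. The log2 change was -0.29 ± 0.11 (adjusted p 0.521) and, without 1F106, -0.37 ± 0.11 (adjusted p 0.776). With the GAPDH ratio as a further term it was -0.39 ± 0.076 (adjusted p 0.0089).

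The largest change with cadmium at day 5 was that of Ndufb8, an accessory subunit of the membrane arm of complex I. Its signal was 118.6 to 614 (median 424) in cadmium rats, against 188 to 675 (median 572) in saline rats. The lowest value of each group was that of its rat of high GAPDH ratio, 5F140 and 1F106. The groups overlapped widely, and the log2 change was -0.42 ± 0.23 (adjusted p 0.857).

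Across all 15 groups at once, the moderated F test of limma called no subunit gene, against 4.46% of all genes, and 3 of 78 reached an unadjusted p under 0.05, against 17.4% of all genes. The smallest adjusted p was 0.117, for Cox7a1. Its group means ran from 26.6 ± 12.6 in naive rats (SD, n = 6) to 47.01 ± 10.7 in doxorubicin rats at day 1, signals near the filter limit of 33.2. Next came Ndufv1 (adjusted p 0.161), Sdhb, the iron-sulfur subunit of succinate dehydrogenase (0.256), Atp5mg, subunit g of the ATP synthase (0.308), and Ndufa1, a small membrane-arm subunit of complex I (0.331). Group means of Sdhb lay between 2624 ± 198 with tobramycin at day 5 and 2946 ± 248 with cisplatin at day 1. Those of Ndufa1 lay between 3603 ± 426 with cisplatin at day 5 and 4350.2 ± 353 with valproic acid at day 5. Atp5mg stayed between 2952 ± 242 with doxorubicin at day 1 and 3382 ± 393 with cisplatin at day 1.

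The change from day 1 to day 5 was tested as the effect at day 5 minus the effect at day 1, and no subunit gene was called for any compound. All genes called made up 0.0526% for doxorubicin, 0.00876% for cisplatin and 0% for the other compounds. The subunit median was lowest for cisplatin, at -0.18, with 74 of 78 values negative and 18 at an unadjusted p under 0.05, against 10.2% of all genes. Atp5mpl, a small membrane subunit of the ATP synthase, had the smallest p there, with a difference of -0.33 ± 0.12 (adjusted p 0.37). That median was -0.071 with 1 gene at that p under array quality weights and -0.093 with 6 genes with the GAPDH ratio as a term. After quantile normalization it was -0.099 with 10 genes, and without 1F106 it was -0.12. On the arrays of the groups compared alone it was -0.18 with 13 genes. With brightness as a term it was -0.16 with 10 genes, and at pseudocount 64 -0.16 with 18 genes. In the comparison of gentamicin with tobramycin no subunit gene was called at day 1 (0.0263% of all genes) or day 5 (0%). The smallest p at day 1 was that of Cox7b, a small subunit of cytochrome oxidase, with a difference of -0.18 ± 0.071 (adjusted p 0.562). The smallest at day 5 was that of Ndufs1, with a difference of 0.30 ± 0.10 (adjusted p 0.806).

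Saline itself did not move the subunits to a call against naive rats, at day 1 or day 5, where 0% of all genes were called. The subunit median was -0.025 at day 1 and 0.035 at day 5, where 50 of 78 changes were positive. Without 1F106 the day 5 median was -0.018. Mean scores were 0.024 ± 0.10 in naive rats, -0.0031 ± 0.077 in saline rats at day 1 and 0.071 ± 0.13 at day 5 (SD). At an unadjusted p under 0.05 there were 1 subunit gene at day 1, against 6.76% of all genes, and 7 at day 5, against 9.31%. The smallest p was that of Cox7a1 at day 5. It read 26.6 to 75.8 in saline rats and 7.7 to 44.1 in naive rats, with overlap, and the log2 difference was 0.58 ± 0.16 (unadjusted p 0.000385 in the limma fit, adjusted p 0.364).

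Genes that serve the chain but are no subunits gave a like picture under treatment. Of 43 assembly factors, 14 genes of pyruvate dehydrogenase and the TCA cycle, 13 of coenzyme Q and cytochrome c, 8 carriers and porins and 18 regulators of mitochondrial biogenesis, none was called in any of the 12 comparisons. In the F test over 15 groups 1 of 43 assembly factors and 1 of 18 regulators were called, shares near the 4.46% of all genes called. Nubpl, which delivers iron-sulfur clusters to complex I, had an adjusted p of 0.00674, and with cisplatin its log2 change was -0.30 ± 0.12 (adjusted p 0.989) in the day 1 rats and -0.46 ± 0.13 (adjusted p 0.112) in the day 5 rats. Pprc1, a coactivator related to PGC-1, had an adjusted p of 0.0283, with log2 changes of 0.37 ± 0.11 with gentamicin at day 1 and 0.39 ± 0.12 with cisplatin at day 5 (adjusted p 0.234 and 0.131). Ttc19 (adjusted p 0.147), Coq7 (0.165), Coq4 (0.281), Idh3g (0.38), Sucla2 (0.514), Ucp2 (0.585), Slc25a4 (0.654) and Polg2 (0.0706) had the smallest p of their lists beside these and were not called.

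Cox8b, the cytochrome oxidase isoform of brown fat and muscle, gave the largest change in 9 of the 12 comparisons and was not called in any. With valproic acid at day 5 it read 4.52 to 40.1 (median 13.48), against 22.7, 46.4, 52.4, 67.1 and 130 in saline rats, with overlap. The log2 change was -1.27 ± 0.60 (adjusted p 0.619). With gentamicin, tobramycin, cisplatin and doxorubicin at day 5 the changes were -0.72, -0.95, -0.76 and -0.45, and with gentamicin, tobramycin, cadmium and valproic acid at day 1 they were -0.64, -0.47, -0.41 and -0.42, each with an SE of at least 0.55. The lowest and highest Cox8b signals were 1.24 and 115.4 in males (median 25.0) and 1.68 and 243 in females (median 51.7), and 26 of 44 males and 20 of 45 females lay under 33.2.

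Cox8b followed Ucp1, the uncoupling protein that defines brown fat, from rat to rat. Over the 44 males Pearson's r was 0.77 and Spearman's rho 0.65; over the 45 females r was 0.92 and rho 0.90. Each had an adjusted permutation p of 2.7e-05, from the smallest p that 100000 permutations can give. The adjustment took the Pearson and Spearman p-values of all 8 relations computed together. Rats of a sex were permuted across all groups, with no group term. Without the 2 rats farthest from the median Ucp1 signal, r was 0.74 and 0.93 in males and females. Ucp1 ran from 0.77 to 312 (median 7.87) in males, with 29 of 44 under 33.2, and from 0.90 to 1144 (median 135) in females, with 14 of 45 under it. Adipoq, made by fat cells in general, followed Cox8b with r of 0.43 in males (adjusted p 0.0084) and 0.87 in females (adjusted p 2.7e-05). Cox7a1 showed no such relation that passed, with r to Ucp1 of 0.29 in males (adjusted p 0.095) and 0.17 in females (adjusted p 0.35). Without the 2 rats farthest from the median Ucp1 signal, r was 0.45 in males and 0.13 in females, values that were not tested. Of 5 brown fat markers listed, Ucp1, Cidea and Ppargc1a passed the filter and Elovl3 and Dio2 did not. Of 9 skeletal muscle markers on the array, 7 lay below the filter, among them Ckm and Acta1.

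**Figure D4:**
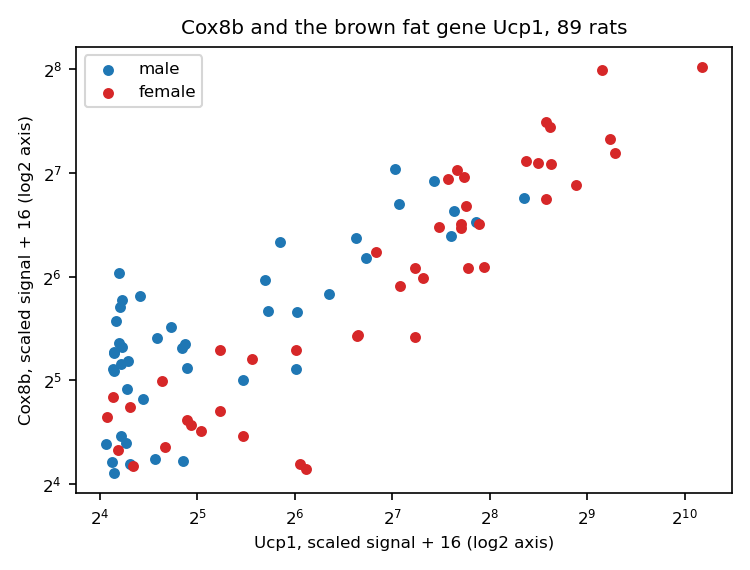
Signal of Cox8b against that of Ucp1 in each of 89 rats, both as scaled signal + 16 on log2 axes, males in blue and females in red. Cox8b rises with Ucp1 in both sexes (r = 0.77 in 44 males and 0.92 in 45 females), and the highest values of both genes belong to females.

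Between the sexes, a comparison of 44 with 45 rats, many subunit genes were called. Males had 37 of the 78 subunit genes higher and 7 lower than females at an adjusted p under 0.05, where 23.9% of all genes were called higher and 40.4% lower. The median difference, male minus female, was 0.060 on the log2 scale, against -0.051 over all genes, and 63 of 78 were positive. The differences were small: 77 of 78 intervals stayed within 1.5-fold. In each of the 15 groups the mean of the males was higher for 11 of 78 subunit genes and lower for 1, against 8.89% and 9.83% of all genes.

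The split depended on the normalization. After quantile normalization in place of scaling, 19 subunit genes were called higher and 16 lower in males (all genes 26.5% and 35%), and the median difference was 0.0027, against -0.025 over all genes. Over 9 fits on the rats of all groups, the main fit included, 19 subunit genes were higher in males in every fit and 5 lower in every fit. The genes higher in every fit were Ndufa4, Ndufa6, Ndufb6, Ndufb8, Ndufb9, Ndufs1, Ndufs3, Sdhb, Sdhc, Sdhd, Uqcrc2, Uqcrfs1, Cox8a, Atp5f1a, Atp5f1b, Atp5mg, Atp5mpl, Atp5pb and Atp5pd. The genes lower in every fit were Ndufa2, Ndufa4l2, Cox6b2, Cox7a2l and Cox7b. Among the 18 control rats alone, fewer arrays, 12 subunit genes were called higher and 0 lower (limma; 25 of 78 at an unadjusted p under 0.05), with a median of 0.067.

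**Figure D5:**
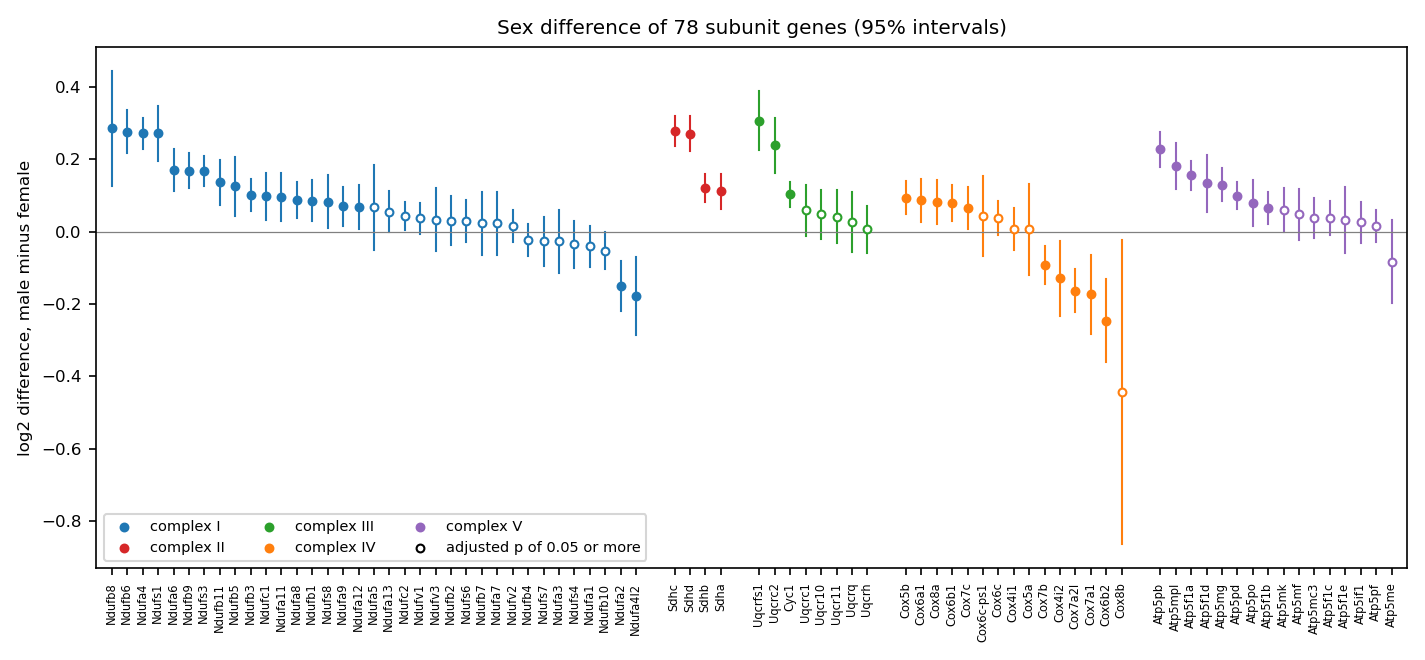
Male minus female log2 difference of 78 subunit genes with 95% intervals (limma fit on 44 males and 45 females, group as a term), ordered by size within complexes I to V; filled points have an adjusted p under 0.05. All 4 genes of complex II lie above 0, and complex IV holds 5 of the 7 genes called lower in males, beside 40.4% of all genes called lower.

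Complex II was the most uniform, with all 4 subunits higher in males. Sdhc, a membrane anchor of succinate dehydrogenase, read 2983 to 4135 (median 3476) in males and 2508 to 3274 (median 2831) in females. The ranges overlapped, but all 44 males lay above the female median, and the difference was 0.28 ± 0.021 (SE; adjusted p 6.59e-20). Sdhd, the other anchor, read 2834 to 3921 (median 3305) in males and 1880.1 to 3137 (median 2719) in females, a difference of 0.27 ± 0.024 (adjusted p 7.03e-17) that its second probe set gave as 0.31. Sdha, the flavoprotein that oxidizes succinate, read 2735 to 3917 (median 3275) in males and 2516 to 3576 (median 3047) in females, a difference of 0.11 ± 0.025 (adjusted p 5.83e-05). Sdhb differed by 0.12 ± 0.019 (adjusted p 6.77e-08). After quantile normalization the difference of Sdha was 0.036 and no longer called (adjusted p 0.224).

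Because the 4 Sdh genes differed by sex together, their promoters are shown, 250 bases before to 50 after the start, 5′ to 3′ on the gene's strand, from RefSeq on GRCr8. Capitals mark matches to 4 motifs searched on both strands: TGCGCA (core of the NRF1 site, the same on both strands), AAGGTCA (ERR), CCGGAAG (ETS) and ATGGCGG (YY1). These are factors known to control nuclear genes of the respiratory chain. The Sdha promoter lies at chr1:30764303-30764602 on the plus strand, the Sdhb promoter at chr5:158547684-158547983 on the plus strand, the Sdhc promoter at chr13:86097976-86098275 on the minus strand and the Sdhd promoter at chr8:59850592-59850891 on the minus strand.
Sdha: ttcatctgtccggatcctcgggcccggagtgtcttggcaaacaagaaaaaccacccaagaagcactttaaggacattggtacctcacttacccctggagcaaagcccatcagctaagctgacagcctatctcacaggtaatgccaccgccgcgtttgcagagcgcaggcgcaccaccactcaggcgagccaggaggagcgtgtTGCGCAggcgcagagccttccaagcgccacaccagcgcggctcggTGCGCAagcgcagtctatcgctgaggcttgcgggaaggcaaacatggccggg
Sdhb: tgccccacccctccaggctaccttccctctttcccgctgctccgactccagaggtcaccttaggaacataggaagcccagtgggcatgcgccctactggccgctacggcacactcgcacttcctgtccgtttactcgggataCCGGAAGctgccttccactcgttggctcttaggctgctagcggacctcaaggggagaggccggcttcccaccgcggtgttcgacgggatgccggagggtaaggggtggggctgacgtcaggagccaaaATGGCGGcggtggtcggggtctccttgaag
Sdhc: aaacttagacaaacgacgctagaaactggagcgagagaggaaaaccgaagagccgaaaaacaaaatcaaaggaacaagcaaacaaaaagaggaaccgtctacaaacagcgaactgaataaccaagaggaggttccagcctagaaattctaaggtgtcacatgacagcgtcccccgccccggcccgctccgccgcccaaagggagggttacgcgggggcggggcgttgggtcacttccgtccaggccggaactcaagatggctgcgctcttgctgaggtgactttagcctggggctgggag
Sdhd: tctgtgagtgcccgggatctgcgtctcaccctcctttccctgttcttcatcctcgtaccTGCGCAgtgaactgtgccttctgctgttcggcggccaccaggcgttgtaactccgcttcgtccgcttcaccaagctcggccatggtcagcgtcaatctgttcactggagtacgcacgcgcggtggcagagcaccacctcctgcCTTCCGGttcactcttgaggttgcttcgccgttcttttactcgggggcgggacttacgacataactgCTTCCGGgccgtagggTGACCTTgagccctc
The Sdha promoter holds 2 NRF1 matches, that of Sdhb 1 ETS and 1 YY1 match, that of Sdhd 1 NRF1, 1 ERR and 2 ETS matches, and that of Sdhc none of these letters. Of the 80 subunit genes, 71 had a promoter in the table. The NRF1 core was in 19 of 71 (26.8%), against 13.2% of 9478 promoters of genes tested and 7.68% of all 27457. ERR was in 11 (15.5%, against 2.85% and 4.37%), ETS in 20 (28.2%, against 17.3% and 9.22%) and YY1 in 16 (22.5%, against 9.85% and 5.22%). Among the 32 promoters of genes called higher in males, these motifs were in 12, 5, 10 and 6. No motif searched overlaps another by its letters in these promoters. A match of letters is no evidence of binding.

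Complex I had 17 of 35 genes higher and 2 lower in males, beside 23.9% and 40.4% of all genes. Ndufa4, a small subunit now assigned to cytochrome oxidase by structure, read 3415 to 5365 (median 4117) in males and 3054 to 4133 (median 3374) in females. The ranges overlapped, all 44 males lay above the female median, and the difference was 0.27 ± 0.021 (adjusted p 2.47e-19). Ndufb6 and Ndufb8, accessory subunits of the membrane arm, differed by 0.28 ± 0.030 and 0.29 ± 0.080 (adjusted p 5.87e-13 and 0.00137). Of the core subunits, Ndufs1 differed by 0.27, Ndufs3 by 0.17 and Ndufs8 by 0.082, all called. Ndufv1 (0.037), Ndufv2 (0.016) and Ndufs7 (-0.027) were not called, with adjusted p of 0.122, 0.535 and 0.503. Lower in males were Ndufa2, an accessory subunit of the matrix arm, at -0.15 ± 0.035 (adjusted p 0.000124), and Ndufa4l2, a relative of Ndufa4 known to be induced by low oxygen, at -0.18 ± 0.054 (adjusted p 0.00296). Ndufa4l2 was dim, with medians of 30.4 in males and 34.1 in females. Probe sets of 1 gene disagreed for Ndufa7, which was 0.022 by its brighter probe set and 0.30 (called) by the other, and for Ndufa9, at 0.070 (called) and -0.087.

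Complex III had 3 of 8 genes higher in males and none lower, beside 23.9% and 40.4% of all genes. Uqcrfs1, the Rieske iron-sulfur protein, had the largest positive difference of all subunits in the main fit, 0.31 ± 0.040 (adjusted p 4.01e-10). It read 3041 to 4498 (median 3728) in males and 1349 to 3617 (median 3137) in females, and 43 of 44 males lay above the female median. The females of high GAPDH ratio were among the lowest, at 1349 (5F140), 1678 (1F106), 2469 (7F155) and 2558 (7F160). The median of its differences within the 15 groups was 0.25, below those of Ndufb8 (0.37) and Ndufa4 (0.29), among others. Uqcrc2, a core protein, differed by 0.24 ± 0.038, and Cyc1, cytochrome c1, by 0.10 ± 0.017, while its partner core protein Uqcrc1 was not called (0.059, adjusted p 0.135).

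Complex IV was split, with 5 of 15 genes higher and 5 lower in males, beside 23.9% and 40.4% of all genes. The higher ones were Cox5b (0.093), Cox6a1 (0.086), Cox8a (0.082), Cox6b1 (0.079) and Cox7c (0.064). The lower ones were Cox6b2, the testis isoform, at -0.25 ± 0.057 (adjusted p 0.000137), Cox7a1 at -0.17 ± 0.055 (adjusted p 0.00445), Cox7a2l at -0.16 ± 0.029 (adjusted p 1.5e-06), Cox4i2, an isoform known from lung and low oxygen, at -0.13 (adjusted p 0.0263), and Cox7b at -0.093. Cox7a2l read 931 to 1248 (median 1055) in males and 1011 to 1941 (median 1137) in females. Cox6b2, Cox7a1 and Cox4i2 had medians of 19.9, 35.6 and 22.4 in males and 25.8, 41.5 and 27.6 in females, near or under the filter limit. Over the 9 fits Cox7c was called higher in 3 and Cox4i2 lower in 5, and the other called genes of complex IV in 8 or 9. Cox4i1 (0.0067) and Cox5a (0.0061) were not called, and Cox8b, at -0.44 ± 0.21, had an adjusted p of 0.0597.

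Complex V had 8 of 16 genes higher in males and none lower, beside 23.9% and 40.4% of all genes. Atp5pb, the b subunit of the peripheral stalk, read 3869 to 5316 (median 4310) in males and 2633 to 4584 (median 3742) in females, a difference of 0.23 ± 0.024 (adjusted p 2.21e-13). The catalytic head subunits Atp5f1a and Atp5f1b differed by 0.16 and 0.065 (adjusted p 1.16e-10 and 0.00988). Atp5mg differed by 0.13 ± 0.023 (adjusted p 1.26e-06). The c-ring gene Atp5mc3 (0.038), the inhibitor Atp5if1 (0.025) and Atp5me (-0.083) were not called.

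Partner genes of the chain were called by sex too, beside the 23.9% of all genes called higher in males and the 40.4% called lower. Of 14 genes of pyruvate dehydrogenase and the TCA cycle 12 were higher and 1 lower in males, with a median of 0.19. The exception was Pdha1, the E1 alpha subunit of pyruvate dehydrogenase, at -0.40 ± 0.019 (adjusted p 1.42e-32), beside 0.28 ± 0.022 for its partner Pdhb. Of 43 assembly factors 22 were higher and 6 lower, led by the copper chaperone Cox19 (0.75 ± 0.035) and Sdhaf3 of complex II (0.43 ± 0.031). Of 8 carriers and porins 5 were higher and 2 lower, with Slc25a4, the adenine nucleotide carrier, at 0.37 and the porin Vdac1 at 0.34. Coenzyme Q genes were split 5 to 5 of 13, with Coq8a at -0.59 and Coq2 at 0.29. Of 18 regulators 3 were higher and 4 lower, both below the shares of all genes, among them Polg2, of mitochondrial DNA replication, at -0.64 and Pprc1 at -0.30.

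Markers of several cell types were called by sex as well, again beside 23.9% of all genes higher and 40.4% lower in males. Proximal tubule genes were 6 higher and 2 lower of 12 in males, with summed signals of 31591 to 50356 (median 39889.7) in males and 31689 to 45222 (median 37065) in females. All 9 collecting duct genes, all 4 podocyte genes and 5 of 6 endothelial genes were lower in males, and none was higher. Other lists did not move as a whole: 1 of 4 red blood cell genes and 2 of 8 macrophage and granulocyte genes were lower in males. Of 5 white fat genes 4 were lower, while Cidec, a lipid droplet protein, was higher in males by 1.97 on the log2 scale (adjusted p 4.97e-40). The collecting duct genes summed to 6603 to 11509 (median 8832) in males and 8269 to 13417 (median 10868) in females. The GAPDH ratio ran from 0.20 to 0.59 (median 0.34) in males and from 0.15 to 1.57 (median 0.39) in females; with it as a further term 57 subunit genes were higher and 5 lower in males, and without the 4 females of high ratio, a choice made after seeing the data, 54 and 6. The part of the cell makeup in the sex difference was not tested.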

How the data were processed

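The authors deposited 1 value per probe set and array, a MAS5 signal on a linear intensity scale, per the submitters' processing notes. Not given in the sources used here: its version and scaling, and any detection call. Groups came from sample titles; 5 arrays carry no treatment text or one at odds with their title. The members and lists were chosen with earlier results of these data known.

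Each array was scaled to a common 2% trimmed mean, since arrays differed 3.84-fold, and written as log2(signal + 16). Control probe sets (57), those with several symbols (436) and those with none (9780) were left out. Each of 14217 named genes kept its probe set of highest mean, and genes over the 40th percentile (33.2) on at least 5 arrays were tested. limma 3.58.1 in R 4.3.3 (lmFit, eBayes with trend and robust) used all 89 arrays with group and sex; p-values were adjusted by Benjamini-Hochberg over 11415 genes. The steps were tested on simulated data. Alternatives were 2-group fits, pseudocount 64, quantile normalization, no filter, every probe set, array weights, brightness or GAPDH ratio as a term, pooled controls, and arrays left out. Members named are a fixed set of core subunits and isoforms, the largest change in each treatment comparison and the 5 largest on each side by sex. The 5 smallest p of the F test, 2 genes per partner list and those with a rat apart were named too. Some members outside this rule are also given, such as Cox7b, Cox7c, Cox6b1, Atp5pb and Atp5mpl. Among them are those with the smallest p of a further comparison. Nothing says how rats were housed across groups, so p-values measure the spread between rats. An intensity carries no count, so the number of arrays limits precision. Correlations used permutation tests in Python 3.11.15; figures used matplotlib 3.10.9. Of the 80 genes, 80 matched GRCr8 by gene ID.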

Additional observations from a re-analysis of the deposited data

Results flagged for a closer look

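Single rats stood apart from their group in 6 cases, by a gap to the nearest rat above Dixon's limit. Each of 15 groups of 5 to 7 rats was tested on each of 7 measures (6 genes and the score). Chance flags about 1 in 20 of such tests, so 6 flags are close to the number chance alone would give. Cox8b read 243 in female 4F131 of tobramycin at day 5, against 2.28 to 27.1 in the others, and that rat also had the highest Ucp1 signal, 1144. Cox8b read 6.05 in male 5M40 of cadmium at day 5, against 64.7 to 157.6 in the others. Cox7a1 read 67.5 in female 6F146 of doxorubicin at day 1, against 37.3 to 47.02, and 29.5 in male 6M50 of doxorubicin at day 5, against 37.9 to 41.7. Ndufv1 read 2554 in female 1F106 of saline at day 5, against 1794 to 1973. Sdhb read 2289 in female 7F158 of valproic acid at day 5, against 2891 to 3034.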

How the results depend on the processing

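No paired analysis was possible because every array is a different animal and nothing in the codes ties animals together. The count of called subunit genes was 0 in the treatment, saline against naive, day 5 minus day 1 and gentamicin against tobramycin comparisons under every other setting run, except 1 for tobramycin at day 5 with the GAPDH ratio as a term (Ndufs1). Leaving out each rat in turn gave 0 to 0 in those comparisons, 0 to 1 in the F test, 34 to 40 for genes higher in males and 7 to 8 for genes lower. The F test called 1 subunit gene with array quality weights (Cox7a1, adjusted p 0.0479), 1 with the GAPDH ratio (Ndufs1, adjusted p 0.00336) and 1 without rat 3M21, replicate 2 of cisplatin at day 1 (Cox7a1, adjusted p 0.0427). Counts higher in males were 12 on the 18 control rats, where fewer arrays were fitted, 19 after quantile normalization and 57 with the GAPDH ratio; counts lower were 0 and 16 in the first 2 of these. After quantile normalization the sign turned for Ndufv2 (-0.067, adjusted p 0.00209) and Cox4i1 (-0.035, adjusted p 0.0301), neither called in the main fit. The cause of these shifts was not tested. With 5 to 7 rats a group, 75 to 77 of 78 intervals of the treatment comparisons lay within 1.5-fold; smaller changes may have gone undetected.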
